A study of Mus musculus with 3 samples.

Results

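The transcripts described here are those of 10 mouse genes of glucose breakdown and its link to low oxygen, out of 53342 genes in the count table of 3 lungs. The genes are Hif1a, Slc2a1, Hk2, Hk3, Pfkl, Pfkfb3, Aldoa, Gapdh, Pkm and Ldha, a list set by function and found by matching Ensembl identifiers to GENCODE M21 symbols. Each symbol matched 1 identifier, except that Aldoa matched a second, ENSMUSG00000114515, which had 21, 12 and 13 counts in mice 4, 5 and 6 and is not used further. The lungs came from 3 male C57Bl/6 mice, named mouse 4, 5 and 6 after the last digit of their labels, and each library is whole lung from 1 mouse. All 3 had received Mycobacterium abscessus (MAB) microparticles into the trachea, in 50 µL and at an amount equal to 1000000 bacteria, so that granulomas would form. All 3 were then given 5 µg of MIA-602 (labelled MIA602), an antagonist of growth hormone-releasing hormone, under the skin each day for 3 weeks. The ages are not given in the labels, and lungs without the drug or the challenge were not analysed here, so the values describe levels and their spread and show no effect of either.

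Glycolysis converts glucose to pyruvate in the cytosol, and lactate dehydrogenase then turns pyruvate into lactate. Hypoxia-inducible factor 1 (HIF-1) is a transcription factor whose alpha subunit is encoded by Hif1a. At normal oxygen that protein is hydroxylated on prolines and degraded, so the amount of its mRNA does not give its activity. Under low oxygen or inflammatory stimulation the protein accumulates, pairs with ARNT and binds a core DNA motif near many genes of glucose uptake and glycolysis. Activated macrophages are known for such a shift to glycolysis.

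The promoters of these genes held ACGTG, 1 form of that core motif, in a larger share of windows than promoters at large. This is a count of letters with no test. The motif searched was ACGTG on either strand (CACGT on the printed strand), in windows from 250 bases before to 50 after a RefSeq gene start on GRCm38.p6. All 10 genes had at least 1 window, and 15 windows were found in all. Of the 15 windows, 11 (73.3%) held ACGTG, against 19.6% of all 32851 windows. Of the 10 genes 9 had it in at least 1 window, against 21.8% of all genes with windows. The exception was Pfkl. The windows of these genes are also rich in G and C (median 65% against 52.7% for all windows), and among the 6703 windows with 60 to 70% GC the share was 27.3%, with 9 of the 11 windows of these genes in that range holding the motif. Of the 3 Aldoa windows 2 overlap and hold 1 match each, so these are not separate. The related form GCGTG was in 6 of the 15 windows, that of Pfkl among them, and in 32.4% of all. Ldha, the lactate dehydrogenase subunit gene, had 5 matches in 1 window, a number reached by 0.183% of all windows, and Hif1a had 3, reached by 1.73%. The palindrome CACGTG counts as 2 matches, 1 on each strand, and stands in a window each of Ldha, Hif1a and Pfkfb3. A match describes the letters in the window and is not a measured binding site. Shown with the ACGTG matches in capitals are the windows with the most matches (Ldha at chr7:46845554-46845853, plus strand, and Hif1a at chr12:73907617-73907916, plus strand). That of the hexokinase gene Hk2 (chr6:82774405-82774704, minus strand) is shown as well and has 2 matches. A window each of Pfkfb3 and Pkm, not shown, also has 2. That of Pfkl (chr10:78009758-78010057, minus strand) has no ACGTG, and its 1 GCGTG is in small letters.
Ldha: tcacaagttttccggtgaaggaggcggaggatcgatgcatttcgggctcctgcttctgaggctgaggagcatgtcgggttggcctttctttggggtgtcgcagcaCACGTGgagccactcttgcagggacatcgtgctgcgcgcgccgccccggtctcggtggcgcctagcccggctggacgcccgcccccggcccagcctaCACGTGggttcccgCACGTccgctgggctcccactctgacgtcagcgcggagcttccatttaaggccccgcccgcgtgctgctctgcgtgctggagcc
Hif1a: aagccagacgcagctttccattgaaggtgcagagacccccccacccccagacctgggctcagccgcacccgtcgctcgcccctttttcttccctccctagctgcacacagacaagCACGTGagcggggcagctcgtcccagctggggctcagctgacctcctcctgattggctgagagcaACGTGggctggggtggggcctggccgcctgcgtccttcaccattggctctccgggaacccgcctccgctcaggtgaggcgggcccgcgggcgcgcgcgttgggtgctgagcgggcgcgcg
Hk2: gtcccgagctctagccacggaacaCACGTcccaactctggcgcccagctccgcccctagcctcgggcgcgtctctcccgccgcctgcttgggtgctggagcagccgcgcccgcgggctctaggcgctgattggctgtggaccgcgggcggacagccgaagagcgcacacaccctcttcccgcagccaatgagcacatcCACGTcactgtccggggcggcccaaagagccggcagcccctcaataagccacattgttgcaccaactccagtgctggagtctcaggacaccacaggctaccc
Pfkl: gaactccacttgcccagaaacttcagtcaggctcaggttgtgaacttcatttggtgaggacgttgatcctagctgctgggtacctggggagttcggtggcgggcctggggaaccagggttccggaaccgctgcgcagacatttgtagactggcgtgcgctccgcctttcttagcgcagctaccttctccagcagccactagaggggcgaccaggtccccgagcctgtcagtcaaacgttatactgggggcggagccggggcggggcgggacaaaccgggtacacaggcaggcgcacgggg

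The libraries held between 31579465 and 43845715 counts, and the scarcest of the 10 genes still had at least 2102 counts in every mouse. Levels are CPM, counts per 1000000 scaled with TMM (edgeR's trimmed mean of M-values). To compare genes, CPM was divided by the kilobases of annotated exon. Lung identity was seen in the alveolar type 2 markers, 6 of 6 above 1 CPM, whose summed level was 22323, 30044 and 26964 CPM in mice 4, 5 and 6. In whole tissue, a change in the number of cells of a type and a change in RNA per cell cannot be told apart. Skeletal muscle markers summed to 6031, 2218 and 1905 CPM, so mouse 4 stood apart from mice 5 and 6, with all 11 markers more than 1.5-fold higher in mouse 4 than in either. Results are therefore given mouse by mouse.

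All 10 genes ran in the same order, highest in mouse 4, then mouse 6, then mouse 5. That order was found in 19.7% of the 17636 genes that passed the filter on low counts, and 33.4% were highest in mouse 4. Between mice 5 and 6 alone, 10 of 10 were higher in mouse 6, as were 49.9% of all genes. The 10 genes together took 0.532%, 0.344% and 0.383% of the counts of mice 4, 5 and 6. Mouse 4 exceeded mouse 5 by 1.24- to 1.90-fold (median 1.57, against 1.002 over all genes that passed), and mouse 4 exceeded mouse 6 by 1.11- to 1.56-fold (median 1.34). Mouse 6 exceeded mouse 5 by 1.07- to 1.49-fold (median 1.12). More than 1.5-fold separated mouse 4 from mouse 5 for 6 of the 10 genes, all higher in mouse 4, where 5.74% of all genes were higher by as much. For mouse 4 over mouse 6 it was 3 of 10, where 3.43% of all genes were. Those 3 were Hk2, Gapdh and Aldoa, at 1.52-, 1.53- and 1.56-fold, and without the TMM factors the count was 1. Between mice 5 and 6, 0 of the 10 genes differed by 1.5-fold, where 2.68% of all genes were higher and 2.99% lower in mouse 5. At 2-fold the counts were 0 of 10 for mouse 4 over mouse 5 (1.62% of all genes) and 0 of 10 for mouse 4 over mouse 6 (1.33%). Each mouse is 1 library, so differences between single mice have no replicate check.

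**Figure D1:**
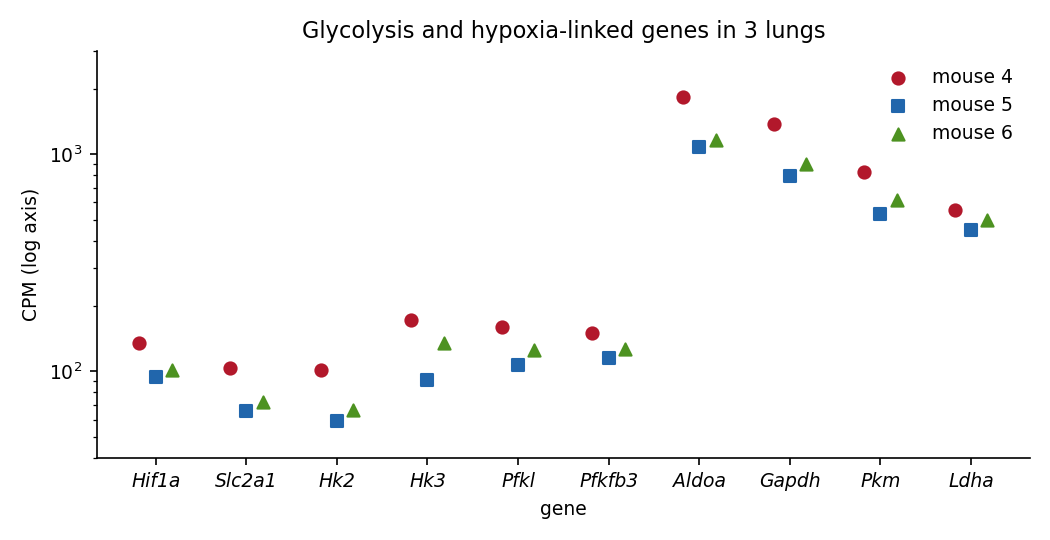
Level of each of the 10 genes in CPM (log axis) in the lung of mouse 4, 5 and 6, 1 point per mouse. For every gene the point of mouse 4 is highest and that of mouse 5 lowest, and the widest gap is that of Hk3, 1.90-fold between mice 4 and 5.

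The spread between mice was above the trend for genes of like abundance in all 10 genes, but none passed the test. In edgeR's quasi-likelihood fit, the ratio of a gene's dispersion to the trend had a median of 5.35 over the 10 genes and of 0.82 over all genes tested, 44.1% of which lay above the trend. Hk3 had a ratio of 12.9, Hk2 of 11.7, Slc2a1 of 8.79, Gapdh of 6.09, Aldoa of 5.40, Pfkl of 5.30, Hif1a of 4.91, Pkm of 4.15, Pfkfb3 of 2.22 and Ldha of 1.04. The edgeR adjusted p was between 0.955 and 0.995 for the 10 genes. Of the 10 genes 3 (Hk3, Hk2 and Slc2a1) had an unadjusted p under 0.05, as had 867 of 17636 genes (4.92%), and 0 of 17636 genes (0%) passed after Benjamini-Hochberg adjustment. Even the skeletal muscle marker Myh1, at 40.1 times the trend, had an edgeR adjusted p of 0.806. Failing the test with 3 mice therefore does not show that a gene is steady. Limma also called 0 of 17636, with 850 at an unadjusted p under 0.05, and DESeq2 marked 104 (0.59%) as dispersion outliers, 0 of them among the 10. Without mouse 4 edgeR called 13 of 17749 genes (0.0732%), again 0 of the 10. With no filter on low counts edgeR called 632 of 30751 genes (2.06%), Hk2 and Hk3 among them, with a smallest adjusted p of 0.0036 for the 10 genes.

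Hif1a, the oxygen-regulated subunit of HIF-1 (ENSMUSG00000021109, chromosome 12, 73901375 to 73947530 on mm10), measured 135 CPM in mouse 4, 94.4 in mouse 5 and 101 in mouse 6. Its related gene Epas1, which encodes HIF-2 alpha and is known from endothelium and alveolar type 2 cells, was far more abundant. Epas1 had 703, 1362 and 961 CPM, in the reverse order of Hif1a. Per kilobase, Hif1a was 9.21-fold lower than Epas1 (log2 ratio −3.20 ± 0.73, SD, n = 3, lower in 3 of 3 mice) and made up 10.2% ± 4.70 of the summed HIF alpha level, Epas1 89.6% ± 4.74 and Hif3a 0.194% ± 0.0565. Endothelial markers, summed at 1088.5, 1548 and 1120 CPM, were like Epas1 highest in mouse 5, 5 of 5, though Cdh5 and Kdr were lowest in mouse 6. Alveolar type 2 markers, summed at 22323, 30044 and 26964 CPM, were also highest in mouse 5. The part of either cell type in the Hif1a to Epas1 ratio was not tested.

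All 9 listed genes of HIF subunits and oxygen sensing reached 1 CPM in each mouse, as did 86.2% of the genes that passed the filter. None of the 9 passed the spread test, and 3 of 9 ran in the order mouse 4, 6, 5. Of all genes that passed the filter, 19.7% ran in that order. The partner subunit Arnt stood at 66.9 ± 5.64 CPM, the prolyl hydroxylases Egln1 and Egln2 at 92.4 ± 8.14 and 61.1 ± 1.52, and Vhl, which marks hydroxylated HIF for degradation, at 39.8 ± 3.39 CPM (SD, n = 3). Egln3, a further prolyl hydroxylase and itself a known HIF target, stood at 19.7, 9.29 and 10.2 CPM in mice 4, 5 and 6.

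Slc2a1 encodes GLUT1, the widespread glucose carrier (ENSMUSG00000028645, chromosome 4, 119108711 to 119137983). It had a level of 104 CPM in mouse 4, 65.6 in mouse 5 and 72.0 in mouse 6, and was 1.58-fold higher in mouse 4 than in mouse 5 and 1.45-fold higher than in mouse 6. Per kilobase it was the leading glucose carrier of the 6 compared, with 47.6% ± 1.23 of their summed level. Slc2a6, a carrier known from inflammatory macrophages, followed with 29.8% ± 2.53, Slc2a8 had 9.81% ± 2.30, the insulin-responsive muscle and fat carrier Slc2a4 8.61% ± 2.87 and Slc2a3 4.07% ± 1.01. Slc2a1 exceeded Slc2a3 by 9.66-fold (log2 ratio 3.27 ± 0.37, higher in 3 of 3 mice), by 6.26-fold by principal transcript length and by 5.61-fold before division by length. The lactate exporter Slc16a3 (MCT4) stood at 129, 69.0 and 85.1 CPM, in the order of the 10 genes. The lactate carrier Slc16a1 and Bsg, the chaperone of both lactate carriers, stood at 37.1 ± 0.79 and 683 ± 6.62 CPM. Of 10 listed glucose and lactate transporters other than Slc2a1, 3 were highest in mouse 4 and 2 ran in the order mouse 4, 6, 5. The shares over all genes that passed the filter were 33.4% and 19.7%.

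The hexokinases, which trap glucose in the cell as its phosphate, were led by Hk3. Hk3, the form known from myeloid blood cells (ENSMUSG00000025877, chromosome 13, 55005985 to 55021385), measured 173 CPM in mouse 4, 91.1 in mouse 5 and 136 in mouse 6 and had the widest spread of the 10 genes. Hk2, the inducible hexokinase of muscle and of activated immune cells (ENSMUSG00000000628, chromosome 6, 82725025 to 82774454), had 101, 59.3 and 66.3 CPM. Both were highest in mouse 4 and lowest in mouse 5. The housekeeping form Hk1 had 116, 93.7 and 94.3 CPM. Per kilobase Hk3 made up 56.9% ± 4.64 of hexokinase transcript level, Hk2 20.01% ± 1.77 and Hk1 19.3% ± 3.10. Hkdc1, a further member of the family, made up 2.43% ± 0.77. Hk3 exceeded Hk1 by 2.88-fold and Hk2 by 2.77-fold (log2 ratios 1.53 ± 0.34 and 1.47 ± 0.21, higher in 3 of 3 mice each). The size of the first depended on the length used: Hk3 exceeded Hk1 by 1.68-fold by longest or principal transcript length, in 3 of 3 mice. Before division by length it was 1.28-fold, in 2 of 3 mice, with Hk1 the higher in mouse 5. Hk3 exceeded Hk2 by 1.75-fold before division by length, in 3 of 3 mice. Hk2 and Hk1 were within the spread between mice (log2 ratio 0.06 ± 0.23, Hk2 higher in 2 of 3 mice), and Hk1 was above Hk2 by the length of the principal transcript (log2 ratio of Hk2 to Hk1 −0.80).

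Phosphofructokinase commits sugar to glycolysis, and PFKFB enzymes set its activator fructose-2,6-bisphosphate. Pfkl, the liver-type subunit (ENSMUSG00000020277, chromosome 10, 77986947 to 78010083), measured 160 CPM in mouse 4, 107 in mouse 5 and 125 in mouse 6. It exceeded the platelet-type Pfkp per kilobase by 1.93-fold (log2 ratio 0.94 ± 0.13, higher in 3 of 3 mice), while before division by length the pair was level (−0.03). The muscle-type Pfkm had 99.3, 45.8 and 47.3 CPM, and per kilobase of exon Pfkl was below it in mouse 4 and above it in mice 5 and 6 (log2 ratios −0.30, 0.22 and 0.39). That split was seen with exon length alone. By longest or principal transcript length Pfkl was above Pfkm in 3 of 3 mice, by 1.64-fold (log2 ratios 0.31, 0.83 and 1.01), and before division by length by 2.14-fold, also in 3 of 3. Pfkfb3, the form with the highest kinase over phosphatase activity (ENSMUSG00000026773, chromosome 2, 11471433 to 11554077), stood at 150, 115 and 127 CPM, highest in mouse 4 and lowest in mouse 5. Per kilobase Pfkfb3 made up 52.3% ± 3.72 of PFKFB transcript level, Pfkfb4 33.9% ± 2.12 and Pfkfb2 10.5% ± 1.14, and Pfkfb3 exceeded Pfkfb4 by 1.52-fold (2.38-fold before division by length) and Pfkfb2 by 4.49-fold, in 3 of 3 mice each.

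Aldoa and Gapdh were the most abundant of the 10 genes. Aldoa encodes aldolase A, the splitting enzyme of muscle and most other tissues (ENSMUSG00000030695, chromosome 7, 126795234 to 126800751), and stood at 1827 CPM in mouse 4, 1083 in mouse 5 and 1170 in mouse 6. Gapdh encodes glyceraldehyde-3-phosphate dehydrogenase, which makes the NADH of the pathway (ENSMUSG00000057666, chromosome 6, 125161715 to 125166467), and stood at 1384, 798 and 903 CPM. Gapdh is often used as a constant reference gene, and here it differed by 1.73-fold between mice 4 and 5. Aldoa made up 98.6% ± 0.15 of aldolase transcript level per kilobase and exceeded the brain form Aldoc by 68.2-fold, in 3 of 3 mice, and by 111-fold by principal transcript length. The sperm form Gapdhs had 4, 1 and 3 counts.

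Pkm encodes the M-type pyruvate kinase (ENSMUSG00000032294, chromosome 9, 59656368 to 59679375) and Ldha the lactate-forming subunit of lactate dehydrogenase (ENSMUSG00000063229, chromosome 7, 46841475 to 46855627). Pkm stood at 829, 532 and 618 CPM in mice 4, 5 and 6. Its splice forms PKM1 and PKM2 share 1 row of counts, so they cannot be told apart here. Pkm exceeded the liver and red cell form Pklr by 153-fold per kilobase, in 3 of 3 mice, by 299-fold by principal transcript length and by 398-fold before division by length. Ldha was the steadiest of the 10 genes, at 555, 446 and 498 CPM, with a coefficient of variation of 10.9% against up to 30.9% among the 10. Its partner subunit Ldhb, known from oxidative tissues, ran the other way, at 102, 147 and 130 CPM. Ldha therefore made up 72.1%, 58.9% and 64.5% of lactate dehydrogenase transcript level per kilobase in mice 4, 5 and 6, and exceeded Ldhb by 1.88-fold on average (log2 ratio 0.91 ± 0.43, higher in 3 of 3 mice). By principal transcript length Ldha exceeded Ldhb by 2.93-fold and before division by length by 3.97-fold, in 3 of 3 mice each. The testis form Ldhc had 0 counts in every library. A count of 0 still permits a level of 0.0696 CPM in mouse 4, 0.0830 in mouse 5 and 0.0946 in mouse 6, taking 3 counts per library as the limit of counting error.

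**Figure D2:**
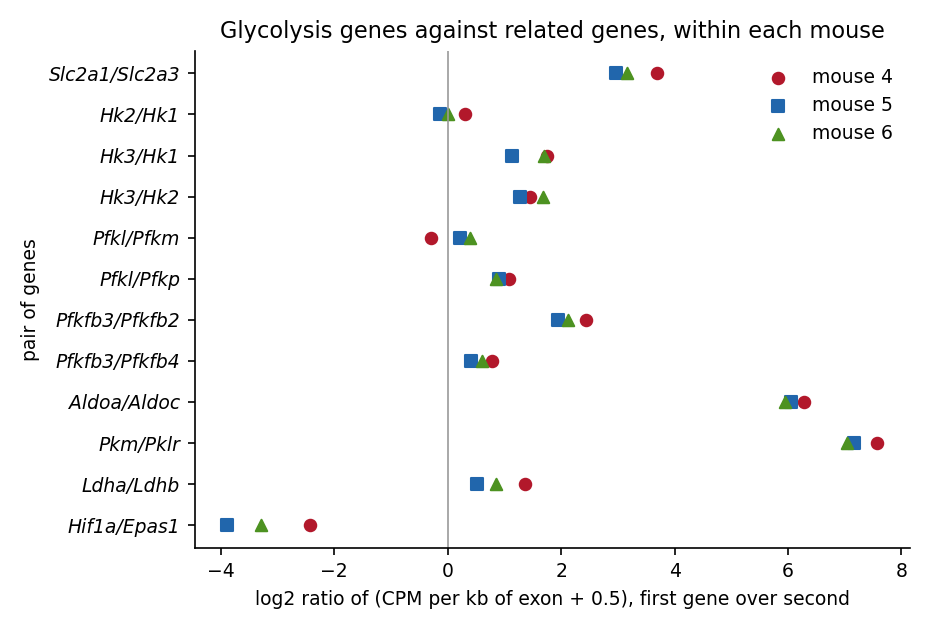
Log2 ratio of length-scaled levels (CPM per kilobase of exon + 0.5) for 12 pairs of related genes, 1 point per mouse, with 0 meaning equal levels. Points lie on both sides of 0 for Hk2/Hk1 and Pfkl/Pfkm, above 0 in all mice for 9 pairs and below 0 in all mice for Hif1a/Epas1.

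Per kilobase of exon, 9 of the 12 pairs had the first gene higher in every mouse. By longest or principal transcript length there were 10, with Pfkl/Pfkm added, and before division by length 8, with Pfkl/Pfkm added and Hk3/Hk1 and Pfkl/Pfkp gone. An exact permutation test that flips the sign of each mouse's log2 ratio (two-sided) cannot give less than p = 0.25, which was its value for those 9 pairs and for Hif1a against Epas1 (0.30 after Benjamini-Hochberg adjustment over the 12 pairs), so no pair could pass.

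Per kilobase of exon the 10 genes ran from Aldoa at 467 ± 140 over Gapdh at 249 ± 75.6, Ldha at 151 ± 16.5 and Pkm at 132 ± 30.6 to Hk3 at 36.2 ± 11.2, Slc2a1 at 23.0 ± 5.91, Pfkl at 19.6 ± 4.05, Hif1a at 18.7 ± 3.67, Pfkfb3 at 17.3 ± 2.30 and Hk2 at 12.7 ± 3.76 CPM per kilobase (SD, n = 3). Their median was 29.6 CPM per kilobase, against 4.48 over all genes that passed the filter, and they ranked between 102 and 4221 of 17636. The ranges of Ldha and Pkm overlapped, as did those of each neighbouring pair from Hk3 down to Hk2, although within every mouse the upper gene of each pair was higher. The annotated exons of Gapdh cover 4133 bases, its principal transcript 1420. By principal transcript length Aldoa and Gapdh came to 878 ± 263 and 724 ± 220 CPM per kilobase with overlapping ranges, and Pfkl and Pfkfb3 moved above Slc2a1.

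**Figure D3:**
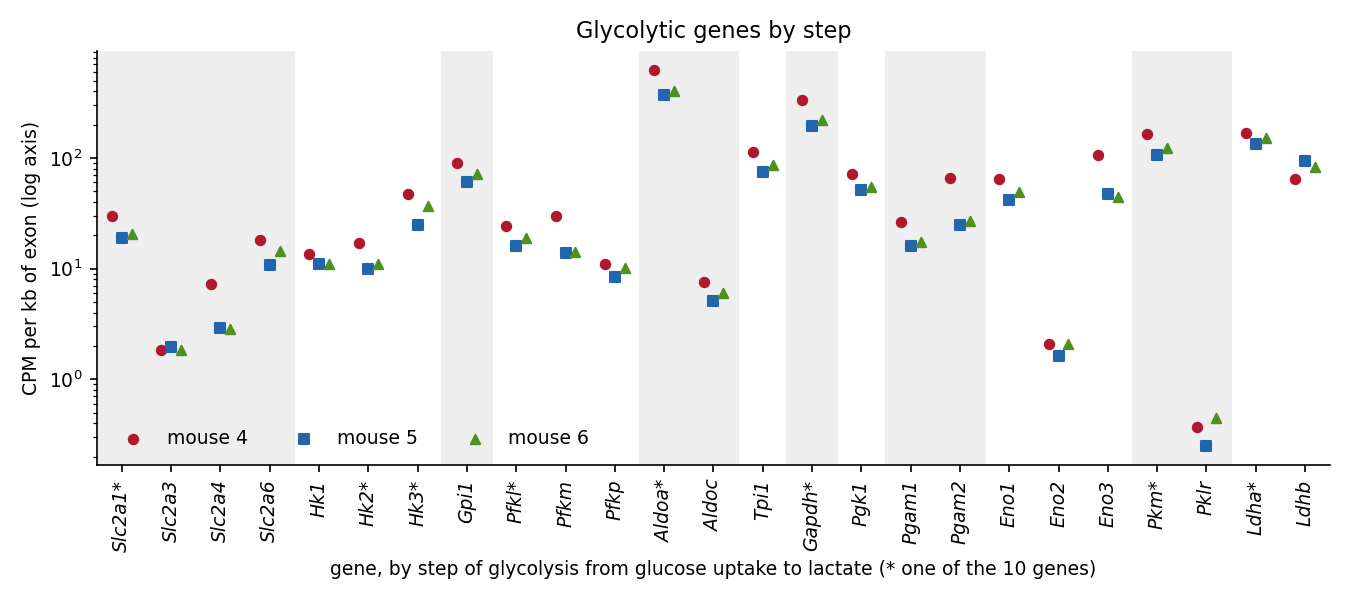
Length-scaled level (CPM per kilobase of exon, log axis) of glycolytic genes in step order from glucose uptake to lactate, 1 point per mouse, with shading to separate the steps. Aldoa and Gapdh stand highest and Pklr lowest, and mouse 4 is the lowest mouse for Ldhb.

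The other genes of the pathway are given by their counts. Of 22 other listed glycolytic enzymes, 17 reached 1 CPM in every mouse, 13 were highest in mouse 4 and 12 ran in the order mouse 4, 6, 5. Of the 22, 18 passed the filter on low counts. Among all genes that passed it, 86.2% reached 1 CPM in every mouse, 33.4% were highest in mouse 4 and 19.7% ran in that order. Over the whole table, without the filter, 28.5% of genes reached 1 CPM in every mouse. Tpi1, Gpi1, Pgk1 and Eno1, which catalyse steps between hexokinase and pyruvate kinase that the 10 genes leave out, stood at 252 ± 55.4, 476 ± 92.6, 133 ± 23.8 and 279 ± 63.2 CPM, and mouse 4 exceeded mouse 5 by 1.53-, 1.46-, 1.38- and 1.56-fold. Muscle forms came next. Eno3 had 186, 81.3 and 76.6 CPM, Pgam2 55.0, 20.6 and 22.4 and the glucose carrier Slc2a4 25.3, 10.2 and 9.90 in mice 4, 5 and 6, and mouse 4 exceeded mouse 5 by 2.28-, 2.63- and 2.41-fold. Bpgm, whose product binds haemoglobin in red cells, was highest in mouse 5, as were 6 of 6 erythroid markers, with sums of 1470, 3202 and 1813 CPM. None of the pathway genes passed the spread test.

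Of 15 HIF targets outside glycolysis, all reached 1 CPM in every mouse, 10 were highest in mouse 4 and 5 ran in the order mouse 4, 6, 5. The shares over all genes that passed the filter were 86.2%, 33.4% and 19.7%. For the 15 targets mouse 4 exceeded mouse 5 by a median of 1.16-fold. Vegfa, the endothelial growth factor, was highest in mouse 5 at 429, 651 and 462 CPM in mice 4, 5 and 6. The mitophagy genes Bnip3l and Bnip3 stood at 144 ± 16.9 and 77.1 ± 15.1 CPM, and the collagen hydroxylase P4ha1 at 102 ± 9.68 CPM. Of 9 glycolysis regulators, 4 were highest in mouse 4 and 3 ran in that order. The kinases Pdk2 and Pdk3 among them, which restrain pyruvate entry into the citric acid cycle, stood at 51.1 ± 7.12 and 20.7 ± 0.86 CPM, and Tigar, a phosphatase that lowers fructose-2,6-bisphosphate, at 20.05 ± 1.16 CPM. Mouse 4 exceeded mouse 5 by a median of 1.13-fold for 7 pentose phosphate genes, of which 4 were highest in mouse 4, led by Taldo1 at 270.1 ± 31.6 CPM, and of 1.14-fold for 13 citric acid cycle genes, of which 12 were highest in mouse 4, with Ogdh, Mdh2 and Sdha at 242 ± 6.86, 152 ± 23.0 and 165 ± 5.01 CPM. Of 7 gluconeogenesis genes 5 passed the filter and 4 reached 1 CPM in every mouse, led by G6pc3 at 46.5 ± 2.52 CPM. The liver gene G6pc had 0 counts in every library. These differences between lists were not tested.

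Cell type markers moved with the 10 genes in part. Over all genes that passed the filter, 33.4% were highest in mouse 4 and 19.7% ran in the order mouse 4, 6, 5. Mouse 6 was above mouse 5 for 49.9% of them. Skeletal muscle markers were 11 of 11 highest in mouse 4 (Acta1 at 1936, 687 and 594 CPM, Ckm at 776, 292 and 258 in mice 4, 5 and 6), by a median of 2.66-fold over mouse 5 and 3.09-fold over mouse 6, but 11 of 11 were lower in mouse 6 than in mouse 5, whereas 10 of 10 glycolysis and hypoxia-linked genes were higher. Monocyte and macrophage markers were 7 of 8 highest in mouse 4 and 6 of 8 in the order mouse 4, 6, 5, by a median of 1.53-fold over mouse 5 and 1.22-fold over mouse 6 (C1qa at 698, 425 and 581 CPM, C1qb at 509, 312 and 419). Their summed level was 14508, 11405 and 11751 CPM. Most of that sum was Lyz2, which ran in another order, at 11888, 9790 and 9687 CPM. Mrc1 was lowest in mouse 4, at 40.1, 51.3 and 47.3 CPM. Neutrophil markers were 0 of 7 in the order mouse 4, 6, 5, with summed levels of 279, 243 and 183 CPM. Squamous epithelium markers were 7 of 7 highest in mouse 4 and 7 of 7 lower in mouse 6 than in mouse 5, with sums of 348, 130 and 112 CPM. T and B cell markers were 6 of 6 and 4 of 4 higher in mouse 6 than in mouse 5 but not highest in mouse 4, apart from Ms4a1. Endothelial and alveolar type 2 markers were highest in mouse 5. Club and ciliated cell markers were lowest in mouse 4, 8 of 8. Cardiac muscle markers summed to 316, 148 and 325 CPM, with all 6 above their mouse 5 level in mouse 6, and 1 of 6 highest in mouse 4. Alveolar type 1 markers were 5 of 5 lower in mouse 6 than in mouse 5, and alveolar macrophage markers, with sums of 517, 632 and 609 CPM, had 1 of 6 highest in mouse 4. Most of that sum was Chil3, at 352, 430 and 399 CPM. Marco ran in another order and was lowest in mouse 5, at 76.0, 45.8 and 87.8 CPM. Of the 6, 4 were lower in mouse 6 than in mouse 5 and 2 were higher. The part of these cell types in the levels of the 10 genes was not tested.

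**Figure D4:**
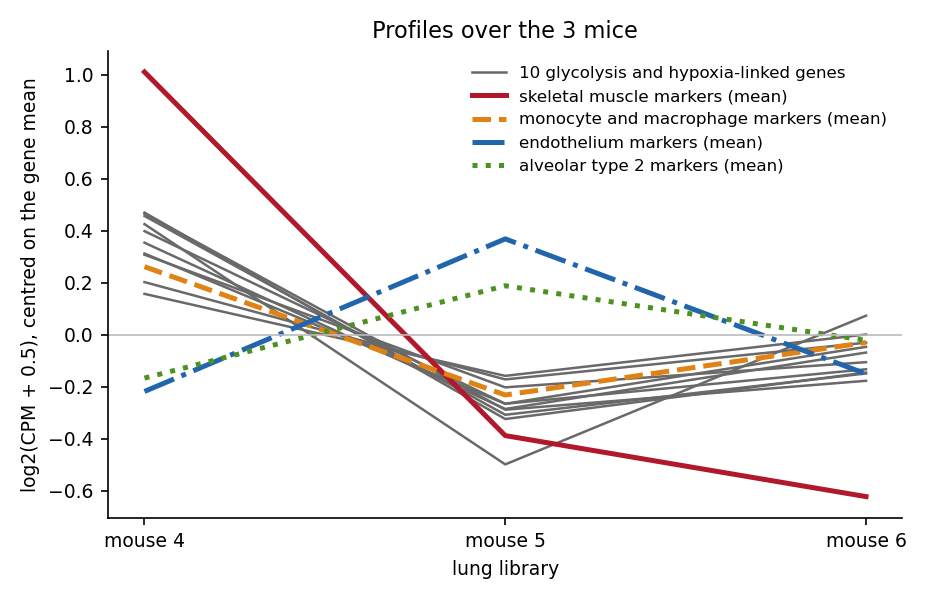
Log2(CPM + 0.5) in the lung of mouse 4, 5 and 6, centred on each gene's own mean, with a thin line joining the values of each of the 10 genes and thick lines for the mean of 4 marker lists. The 10 genes and the monocyte and macrophage mean are lowest in mouse 5, the skeletal muscle mean is lowest in mouse 6 and the endothelial and alveolar type 2 means are highest in mouse 5.

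Pkm lay closest to the mean profile of the 10 genes, and Hk3 furthest from it. The distance was Euclidean, over the centred log2(CPM + 0.5) values of the 3 mice, and was 0.013 for Pkm and 0.278 for Hk3, whose value in mouse 6 was above its own mean. The 5 other genes nearest to that mean, of 10906 with at least 10 CPM, were Bin1, Ifi211, Tgfbi, Cxcl2 and Olr1, with distances of 0.0035 to 0.0131. Bin1 encodes a membrane-bending protein, Ifi211 an interferon-inducible protein of the HIN-200 family, Tgfbi a matrix protein induced by TGF-beta, Cxcl2 a neutrophil chemokine and Olr1 the receptor LOX-1 for oxidised lipoprotein. Tgfbi stood at 488, 314 and 358 CPM and Cxcl2 at 17.5, 11.1 and 13.0 CPM in mice 4, 5 and 6. With 3 points many genes share a profile, and the nearest 1% lay within a distance of 0.0934.

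Overlapping annotation and copied genes limit some counts. Pkm shares 767 exon bases on its strand with Gm49759, which had 965, 525 and 498 counts in mice 4, 5 and 6, and Gapdh shares 68 with Iffo1 on the other strand, which had 1543, 1271 and 1167. Processed pseudogenes named after Gapdh, Ldha and Aldoa had between 0 and 7 counts in any library. The Aldoa retrogene Aldoart1 had 12, 8 and 4 counts in mice 4, 5 and 6. Copies annotated under other names were not searched. How the counting split reads between copies is not given in the sources used here.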

How the data were processed

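Total RNA was extracted from whole lung with a Direct-zol kit and made into libraries with a Nugen mRNA kit, per the labels' protocols. The authors deposited 1 table of whole-number counts, with a row for each Ensembl identifier and a column for each mouse. Tools named in the submitters' processing notes are bcl2fastq 2.17, Trim Galore 0.6.2 and STAR 2.5.2a, with build mm10. Neither the counting tool nor its annotation or strand setting is stated in the labels. GENCODE M21, of the same build, gave symbols, 1-based coordinates and exon lengths for 53237 of 53342 identifiers. Promoter windows came from RefSeq on GRCm38.p6.

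Counts were scaled with TMM factors of 0.983, 1.01 and 1.004 for mice 4, 5 and 6. Spread between mice was tested with edgeR 4.0.16 under R 4.3.3 on the 17636 genes passing filterByExpr, in a quasi-likelihood fit with an intercept alone, as dispersion over trend with an upper-tail F test (3.88 prior degrees of freedom) and Benjamini-Hochberg adjustment at 0.05. The test was tried on simulated counts, and the outcome is not reported here. Limma 3.58.1 and DESeq2 1.42.0 were alternatives, with other scaling, filters, pseudocounts and lengths and leaving out each mouse. Log values are log2(value + 0.5). The labels give 1 group, so no contrast was fitted, and detection means 1 CPM in each mouse.

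The 10 genes, the 8 pathway and 14 marker lists and the 12 pairs were chosen with earlier results of these data known. Named are the 10 genes, both genes of each pair, from each pathway list the 4 highest per kilobase and any at 0 counts, from each marker list up to 4 of the highest CPM, and the 5 genes nearest in profile. Egln3, Arnt, Hif3a, Slc2a4, Slc2a8, Hkdc1, Gapdhs, Pgk1, Eno1, Pgam2, Bpgm, Mrc1 and the overlapping genes fall outside that rule and were named after their values were seen. Some listed genes are not reported here by name. That each mouse is a separate animal is known from the labels and the design text. Intervals and floors cover counting error only.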

Additional observations from a re-analysis of the deposited data

How the results depend on the processing

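No paired analysis was possible because all 3 samples belong to 1 group. With no filter on low counts, edgeR called 2 of the 10 genes (Hk2 and Hk3) against 0 in the fit reported. The prior degrees of freedom of the edgeR fit were infinite there, against 3.88 with the filter, and their part in the calls was not tested. With DESeq2 size factors, plain CPM, limma, DESeq2 dispersions or any mouse left out, the count was 0 (range 0 to 0 without a mouse). The smallest adjusted p of the 10 genes, which DESeq2 dispersions do not give, lay between 0.777 without mouse 4 and 0.965 with DESeq2 size factors. The count of genes more than 1.5-fold higher in mouse 4 than in mouse 6 was 1 with plain CPM against 3, and a limit of 2-fold left 0 for mouse 4 over mouse 5 and 0 for mouse 4 over mouse 6. The order mouse 4, 6, 5 held for 10 of 10 genes with DESeq2 size factors and with plain CPM, alternatives added after the data were seen. The median log2 level of the 10 genes was 4.84 per kilobase of exon, 7.08 with no division by length and 5.24 by principal transcript length (added after the data were seen), and 4.63 to 5.03 with a mouse left out. The Hk2 to Hk1 ratio turned to −0.80 by longest and by principal transcript length, to −0.45 with no division and lay between −0.066 and 0.155 with a mouse left out, negative without mouse 4. The Pfkl to Pfkp ratio turned to −0.026 with no division. The Pfkl to Pfkm ratio lay between −0.040 and 0.306 with a mouse left out, negative without mouse 6, and was 0.72 by longest or principal transcript length and 1.10 with no division, positive in every mouse. The Hk3 to Hk1 ratio was 0.75 by longest or principal transcript length and 0.35 with no division, against 1.53. Pairs with the first gene higher in every mouse numbered 9 per kilobase of exon, 10 by longest or principal transcript length, 8 with no division and 9 to 10 with a mouse left out. Of 92 pathway genes 83 were detected, and 83 to 85 with a mouse left out. Of all genes that passed the filter 86.2% were detected. Levels of single genes were judged by a move of more than 1 SD, and ratios of pairs by their sign alone. By that rule 163 values stayed, 17 levels moved and 6 ratios changed sign, all 6 given above. Leaving out 1 of 3 mice cannot move a mean by 1 SD, so those levels stayed by construction. Scaling factors that multiply to about 1 also leave a mean log2 level nearly unchanged. A count of pairs higher in every mouse cannot fall when a mouse is left out. These values are therefore no check on the levels or on that count. Ratios counted as staying could still shift by more than 1 SD. That of Ldha to Ldhb went from 0.91 (SD 0.43) to 1.99 with no division.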
